A study of Gasterosteus aculeatus with 227 samples.

Results

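Liver gene expression of female and male threespine stickleback (Gasterosteus aculeatus) was compared in 63 liver libraries, 33 from females and 30 from males, 1 library per fish. They were chosen from 77 liver libraries, and from 227 libraries of brain, gills and liver in all, by depth and by agreement of a fish with its sex label. Libraries with under 1000000 counts in genes were set aside (3 of females and 7 of males), as were the livers of 5 fish whose recorded sex was doubtful. One of these 5, male replicate 12, was also among the shallow ones, so 4 deep libraries were lost on this ground, namely female replicates 17 and 23 and male replicates 32 and 35. The fish, 80 in all, were wild, of no stated age, caught at Baie de l'Isle Verte (Québec) while the population was reproducing, and they received no treatment. Sex was therefore the single variable that the labels give within liver, and each fish is a separate animal. Other differences among these wild fish were not controlled. RNA of each liver was turned into a library that reads the 3′ ends of polyadenylated transcripts, so that a transcript gives about 1 fragment whatever its length. Depth ran from 4351992 to 24264210 counts in females (median 9775138) and from 6968342 to 27770413 counts in males (median 12066100). The deepest libraries set aside for depth held 308567 counts (female replicate 4) and 432259 counts (male replicate 12), and the shallowest kept held 4351992 and 4402149 counts, both from females.

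In egg-laying fish the liver of a breeding female makes the yolk precursor vitellogenin and egg coat proteins and releases them into the blood, from which the growing oocytes take them up. Estradiol from the ovary switches on these genes through estrogen receptors in the hepatocyte. The liver of both sexes also makes most plasma proteins (apolipoproteins, clotting factors, complement), stores and releases glucose, breaks down amino acids, and clears steroids and foreign compounds. Secreted proteins enter the endoplasmic reticulum, are folded and glycosylated there, and leave in vesicles for the Golgi.

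The liver label was checked against 7 tested hepatocyte markers, whose summed level ran from 4990 to 52300 counts per 1000000 (CPM, scaled by the TMM method) in females and from 14000 to 98500 CPM in males. The 10 brain markers tested, with the untested ones of their list, summed to medians of 54.9 CPM in females and 71.6 CPM in males. Exocrine pancreas markers reached 1720 CPM in a female and 1540 CPM in a male, with medians of 78.5 and 55.9 CPM in the females and males, and 0 of 4 differed between the sexes in edgeR's test, also at an unadjusted p under 0.05. All 7 hepatocyte markers were higher in males, among them fabp10a, a liver fatty acid-binding protein. It averaged 1932 ± 1605 CPM in the 33 females, against 7540 ± 6430 CPM in the 30 males (± SD). In bulk tissue, fewer cells of a type and less RNA per cell cannot be told apart. Of 11 leukocyte markers tested, 7 were higher in males and 0 in females, and their summed level was 25.7 to 331 CPM in females against 45.6 to 269 CPM in males. Of 7 striated muscle markers, 6 were higher in males, where the sum reached 1060 CPM in the highest library against 36.1 CPM in the highest female. The median of this sum was 12.9 CPM in females and 14.4 CPM in males. For mylpfa, a called member, 20 of 33 females lay above the male median. Of 4 erythrocyte markers, 3 were higher in males, at summed levels of 8.59 to 32.8 CPM in females against 3.39 to 55.1 CPM in males. The part of these other cells in the differences below was not tested.

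Of 13675 genes tested, 6172 (45.1%) differed between the sexes in edgeR's quasi-likelihood test, with p-values adjusted by the Benjamini-Hochberg method and calls made under 0.05. Females were higher for 2788 genes (20.4%) and males for 3384 (24.7%). Among the 13019 genes not placed on X or Y, 2430 were higher in females (18.7%) and 3218 in males (24.7%). Differences of at least 1 on the log2 scale were called for 1136 genes higher in females (8.31%) and 1232 higher in males (9.01%), of at least 2 for 332 (2.43%) and 341 (2.49%), and of at least 3 for 145 (1.06%) and 197 (1.44%). For 31 genes (0.227%) every female lay above every male, and for 150 (1.1%) every male lay above every female. These counts, and those by size of fold, were taken over all 13675 genes, with X and Y genes included. Most Y genes were higher in males and most X genes in females, as given below. Of the calls of at least 1 on the log2 scale, 773 of the 1136 higher in females were autosomal and 236 were X genes. Of the 1232 higher in males, 939 were autosomal and 8 were X genes. Y genes and unmatched genes were among the rest. For the larger folds and for full separation of the sexes, the part outside X and Y was not determined, in either direction. With so many genes called, the share of a gene group that was called has to be read against these percentages. Of the matched X genes tested, 353 of 494 (71.5%) were higher in females and 14 (2.83%) in males. Of 162 Y genes, 5 (3.09%) were higher in females and 152 (93.8%) in males, so genes on these chromosomes are named as such below.

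**Figure D1:**
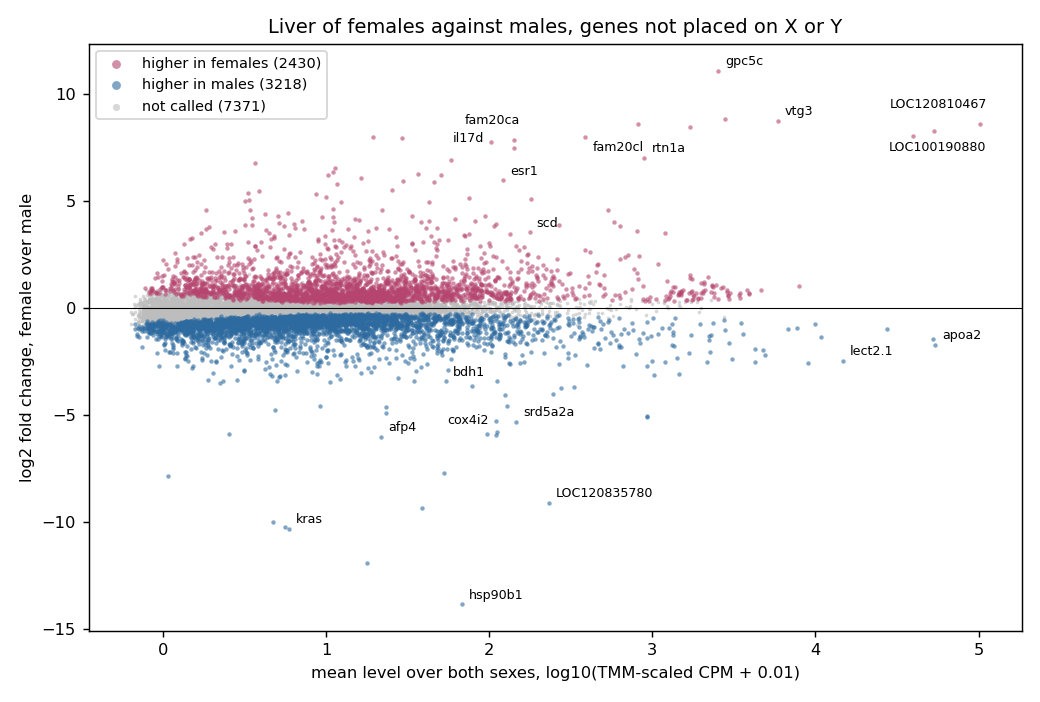
Log2 fold change (female over male) of each tested gene not placed on X or Y against its mean level over both sexes, log10 of TMM-scaled CPM. Pink points are higher in females (2430), blue points higher in males (3218) and grey points not called, and a handful of female-biased genes, LOC120810467 and vtg3 among them, lie far to the upper right at levels that no male-biased gene of such a fold reaches.

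Genes far higher in female livers included vtg3 and a few unnamed transcripts at very high levels, gpc5c, members of the fam20c family and esr1. vtg3, a vitellogenin, ran from 122 to 24510 CPM in females (median 12340) and from 4.47 to 361 CPM in males (median 13.4). All females but replicate 21, the lowest, lay above every male, and replicate 21 lay below male replicate 28, the highest male. The log2 fold change was 8.75 (SE 0.45). Because vtg3 was one of the reasons why 4 libraries were set aside, this difference is given as a description. Those libraries had vtg3 at 40.4 and 15.2 CPM of library totals in female replicates 17 and 23, against 5395 and 11580 CPM in male replicates 32 and 35, and with them returned the log2 fold change of vtg3 was 3.68. Counts of Y genes that no clean female had were 0 in the libraries labelled female replicates 17 and 23. They came to 1308 and 722 CPM in the libraries labelled male replicates 32 and 35, below the lowest clean male at 2437 CPM. Whether female libraries were counted with these genes is not given, so the zeros cannot decide the sex of female replicates 17 and 23. The level of X genes relative to autosomal genes (log2) was -0.084 and -0.108 in those 2 libraries. It was 0.175 and 0.218 in male replicates 32 and 35, against 0.134 to 0.539 in clean females and -0.566 to -0.317 in clean males.

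The most abundant sex-biased transcript was LOC120810467, for which the tables used here give no name beyond its number. It ran from 3318 to 590900 CPM in females (median 186900) and from 54.9 to 7850 CPM in males (median 220). It took up 14.8% ± 6.90 of all counts in the 33 females, against 0.0538% ± 0.128 in the 30 males (± SD). All females except replicate 21 lay above every male (log2 fold change 8.60, SE 0.53). In the libraries set aside LOC120810467 followed vtg3, at 543 and 279 CPM of library totals in those labelled female. It stood at 116900 and 116400 CPM in those labelled male. As vtg3 was one of the reasons for setting them aside, this difference too is given as a description. LOC100190880 took 7.87% ± 2.93 of counts in females and 0.035% ± 0.0875 in males, and LOC120823934 took a median of 5.90% in females and 0.0152% in males. An X gene, LOC120808851, took 10.1% ± 3.70 of counts in females and 0.0335% ± 0.0640 in males, and it was singled out here for its share after values were seen. Together the 10 genes of largest mean share in females made up 47.5% ± 10.4 of female counts and 22.7% ± 5.85 of male counts. The 10 genes of largest mean share in males made up 9.37% ± 6.59 of female counts and 32.7% ± 5.53 of male counts. Genes with near-identical copies are uncertain, since how reads with several places of origin were treated is not given in the sources used here.

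Among genes higher in females, the widest gap in fold was that of gpc5c, a glypican (a proteoglycan tethered to the cell surface). It ran from 266 to 12120 CPM in females (median 4973) and from 0 to 7.70 CPM in males (median 1.94). The lowest female lay far above the highest male. For this gene 33 of 33 females lay above every male (log2 fold change 11.09, SE 0.39, edgeR adjusted p 1.51e-35). In the libraries set aside for doubtful sex, gpc5c stood at 29.7 and 8.07 CPM of library totals in those labelled female. In those labelled male it stood at 0.468 and 0 CPM. On this scale clean females ran from 365 to 7057 CPM and clean males from 0 to 10.9 CPM. Each library set aside thus lay below every clean female, so gpc5c parted from vtg3 only in those labelled male. fam20cl and fam20ca belong to the family of FAM20C, known in mammals as the kinase that phosphorylates secreted proteins in the Golgi. fam20cl ran from 95.5 to 1515 CPM in females (median 743) and from 0.391 to 38.6 CPM in males (median 1.90), with no overlap. fam20ca ran from 6.01 to 487 CPM in females (median 312) and from 0 to 10.0 CPM in males (median 0.906), and only the lowest female fell within the male range. Their log2 fold changes were 7.99 (SE 0.38) and 7.86 (SE 0.40), with edgeR adjusted p-values of 5.54e-29 and 1.87e-27. il17d, a cytokine gene, had medians of 147 CPM in females and 0.594 CPM in males, and 32 of 33 females lay above every male (log2 fold change 7.78, SE 0.49, edgeR adjusted p 4.02e-22). rtn1a, a reticulon of the endoplasmic reticulum that was picked after its values were seen, had medians of 1726 CPM in females and 11.0 CPM in males (log2 fold change 7.02, SE 0.30).

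esr1, the estrogen receptor through which fish vitellogenin genes are switched on, was higher in every female kept than in any male kept. It ran from 41.3 to 472 CPM in females (median 229) and from 0.439 to 24.8 CPM in males (median 2.11). On the log2 scale females exceeded males by 5.97 (SE 0.32). The libraries set aside followed their vtg3, with esr1 at 1.82 and 3.96 CPM of library totals in those labelled female and at 109 and 192 CPM in those labelled male. As vtg3 was one of the reasons for setting them aside, the difference of esr1 too is given as a description. The other estrogen receptors moved less and in both directions. esr2b had medians of 200 CPM in females and 114 CPM in males (log2 fold change 0.76, SE 0.19), and esr2a had 8.34 CPM in females and 11.7 CPM in males (-0.64, SE 0.17), with overlapping sexes in both. The call of esr2b was lost when the doubtful libraries were returned (log2 fold change 0.47) and with scaling by library totals (0.14). srd5a2a, a steroid 5-alpha-reductase, which reduces testosterone to dihydrotestosterone, stood the other way. It ran from 0.435 to 119 CPM in females (median 2.48) and from 2.71 to 1130 CPM in males (median 95.7), and 14 of 30 males lay above every female (log2 fold change -5.30, SE 0.61, edgeR adjusted p 5.29e-11). The androgen receptor gene ar was tested and not called (log2 fold change 0.40). Of the 22 sex steroid genes tested, 5 were higher in females and 4 in males, with a median log2 fold change of 0.05, against -0.09 over all genes.

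**Figure D2:**
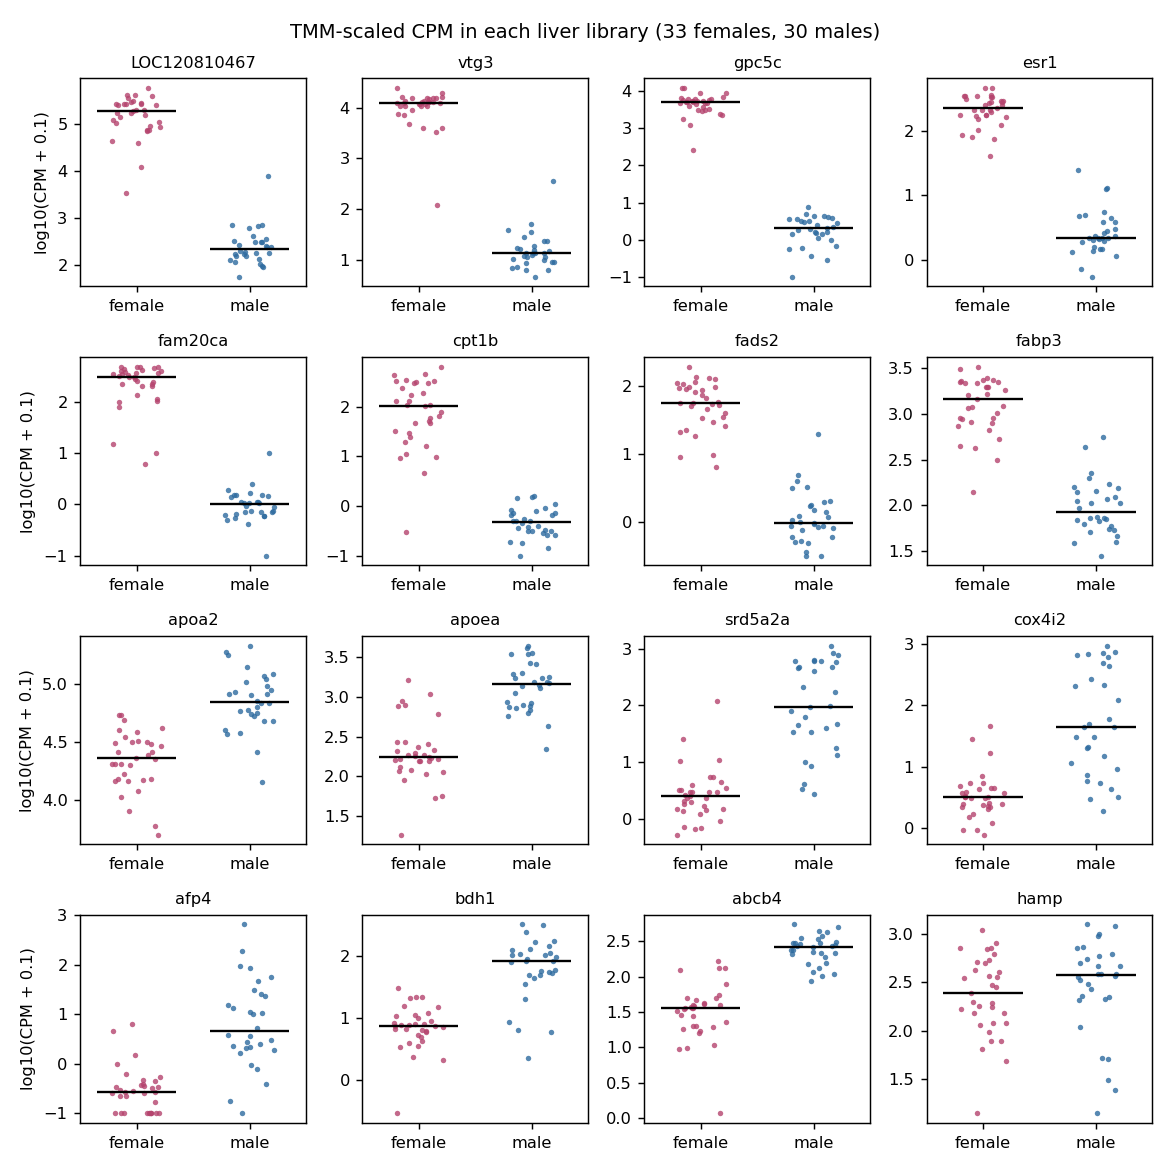
TMM-scaled CPM (log10 of CPM + 0.1) of 16 genes in every liver library, 33 females at left and 30 males at right of each panel, with a bar at the median of each sex. Among these libraries, with those of doubtful sex set aside, the sexes do not overlap for gpc5c and esr1. They overlap by single libraries for vtg3 and LOC120810467, while hamp, which was not called, overlaps throughout.

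Genes that carry proteins into and through the endoplasmic reticulum were the functional list with the largest number of members higher in females. Of 96 secretory pathway genes tested, 65 were higher in females (67.7%) and 3 in males (3.12%), and the median log2 fold change was 1.04. sec11a, the catalytic subunit of signal peptidase, ran from 59.8 to 726 CPM in females (median 294) and from 11.8 to 165 CPM in males (median 46.2). Of the females 24 lay above every male (log2 fold change 2.48, SE 0.23, edgeR adjusted p 4.06e-15). tram1, which helps nascent chains enter the translocon, had medians of 249 CPM in females and 24.8 CPM in males (2.69, SE 0.28). spcs3, another signal peptidase subunit, had medians of 287 CPM in females and 69.1 CPM in males (1.85, SE 0.19). lman1, a cargo receptor for transport to the Golgi, had 344 CPM in females and 77.0 CPM in males (1.83, SE 0.20). The channel subunit sec61a1 (2.19), the disulfide isomerase pdia4 (2.41) and xbp1 (2.47), a transcription factor of the unfolded protein response, were higher in females as well. The main folding chaperone of this compartment, hspa5, was not called, with a log2 fold change of -0.18. Scaled by library totals, 54 of these genes were higher in females and 11 in males, and the list's median was 0.53 against -0.56 over all genes.

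The 3 secretory genes higher in males were hsp90b1, calr and sar1aa. calr, a calcium-binding chaperone (log2 fold change -0.73, SE 0.31, edgeR adjusted p 0.0447), was not called without male replicate 21, where the log2 fold change was -0.35. hsp90b1 is a chaperone of the endoplasmic reticulum, unmatched in the gene table used. It ran from 18.0 to 1261 CPM in males and had no count in any female liver. It likewise had 0 counts in all 39 female brain and 36 female gill libraries. The same held for kras, LOC120812288 and LOC120812612, with male medians of 11.1, 34.8 and 10.4 CPM in liver. Whether female libraries were counted with these genes, or whether they are Y copies in the annotation used, is not given in the sources used here. No fold is therefore given for them, and the place of hsp90b1 among secretory genes higher in males is uncertain.

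Translation genes were mostly higher in females under TMM scaling. Of 78 translation factors and tRNA synthetases tested, 57 were higher in females (73.1%) and 3 in males (3.85%), with a median log2 fold change of 0.70. Scaled by library totals, 24 were higher in females and 12 in males, with a median of 0.16. aars1, the alanyl-tRNA synthetase, ran from 9.78 to 126 CPM in females (median 43.4) and from 5.17 to 31.9 CPM in males (median 9.10), and 22 females lay above every male (2.17, SE 0.19, edgeR adjusted p 7.77e-16). The synthetases wars1 (2.30, SE 0.26) and iars1 (1.60, SE 0.19) were higher too. eif4ebp1, a repressor of cap-dependent translation, was higher in males, with medians of 52.5 CPM in females and 120 CPM in males (-1.31, SE 0.20). eif4a3, an RNA helicase of the exon junction complex, was higher in males (-0.45, adjusted p 0.0334 in edgeR), and this call was lost without its highest library (-0.40, adjusted p 0.0582). Of 76 cytosolic ribosomal protein genes, 61 were higher in females (80.3%) and 0 in males, with a median of 0.60. Scaled by library totals these became 19 and 13 genes with a median of 0.02, against -0.56 over all genes. rpl13a, an autosomal member, had medians of 3002 CPM in females and 1238 CPM in males, and 24 females lay above every male (1.22, SE 0.13, edgeR adjusted p 1.88e-12). The member farthest from zero, rpl27a (3.28, SE 0.15), is an X gene, as are rpl4 and rps13.

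Sterol synthesis genes, which build cholesterol from acetyl-CoA through mevalonate, were mostly higher in females under TMM scaling. Of 24 tested, 14 were higher in females (58.3%) and 1 in males (4.17%), with a median log2 fold change of 1.21. mvk, mevalonate kinase, ran from 5.35 to 193 CPM in females (median 29.0) and from 0.839 to 76.4 CPM in males (median 3.28). The sexes overlapped, with 4 females above every male (2.33, SE 0.39, edgeR adjusted p 9.70e-07). ebp, the sterol isomerase, had medians of 306 CPM in females and 9.48 CPM in males, yet 1 male reached 591 CPM (2.39, SE 0.49, edgeR adjusted p 4.75e-05). tm7sf2, a sterol reductase, had medians of 73.7 CPM in females and 5.15 CPM in males, with the highest male at 206 CPM (1.83, SE 0.42, edgeR adjusted p 2.00e-04). The single member higher in males, ggps1, which makes geranylgeranyl diphosphate, differed by -0.35. Scaled by library totals, 6 sterol genes were higher in females and 3 in males, with a median of 0.45. The library names carry a number for each fish, called a tag here, under 100 or over 200 apart from a few with a letter. The labels do not say what these numbers stand for, and the split into series was made here. The sterol genes differed more in the series under 100. Among fish with tags under 100, 15 of 24 were higher in females and 0 in males, with a median of 2.00, and among those with tags over 200, 3 were higher in females and 0 in males, with a median of 0.33. The difference between the series was not tested.

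**Figure D3:**
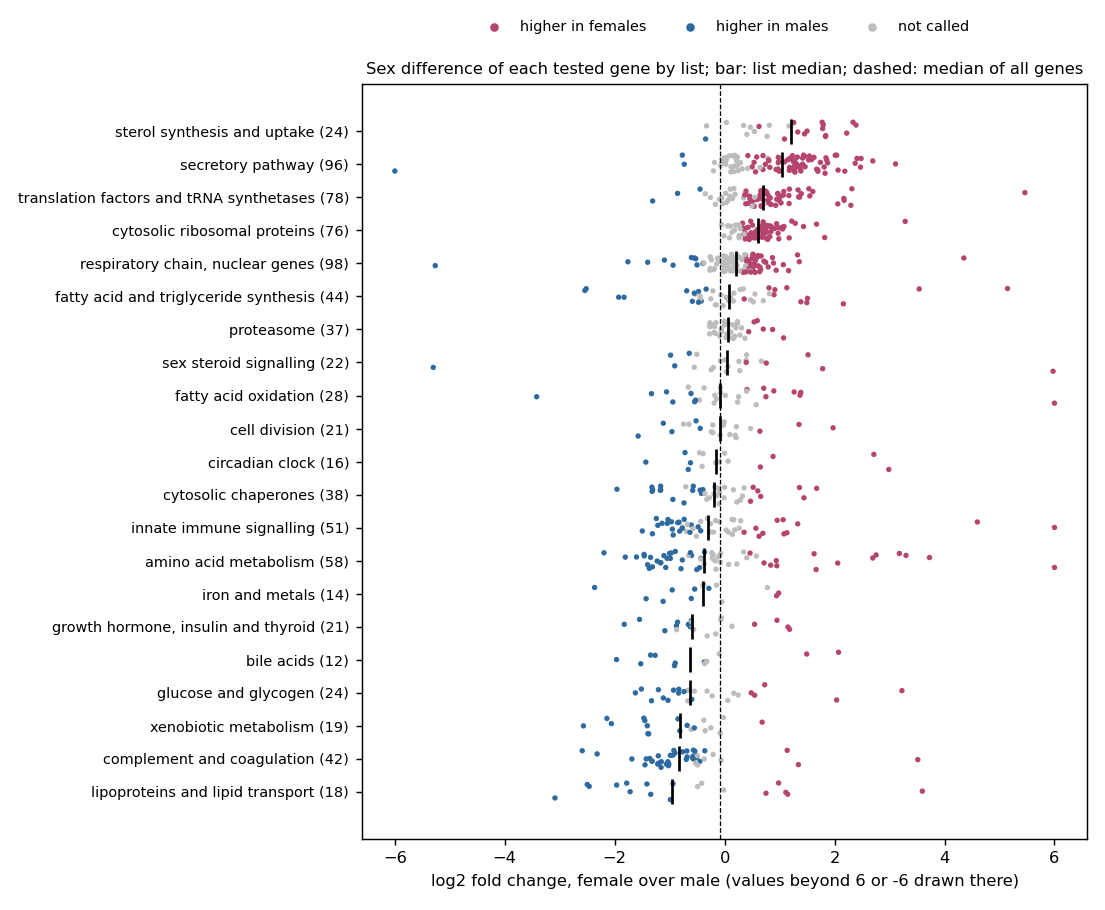
Log2 fold change (female over male) of each tested gene, arranged by gene list in order of the list median, with the number of genes tested in brackets. Black bars mark list medians, from 1.21 for sterol synthesis to -0.96 for lipoproteins, and the dashed line marks the median of all genes, -0.09.

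Of 58 genes of amino acid metabolism, 14 were higher in females (24.1%) and 27 in males (46.6%), with a median of -0.37. phgdh, the first enzyme of serine synthesis, ran from 1.65 to 398 CPM in females (median 79.6) and from 0.0739 to 8.58 CPM in males (median 0.927), and 29 females lay above every male. On the log2 scale females exceeded males by 6.24 (SE 0.44, edgeR adjusted p 1.20e-19). The next enzymes of that path, psat1 (3.73) and psph (2.75), were higher in females too, as was asns, asparagine synthetase, with medians of 62.9 CPM in females and 10.3 CPM in males (2.69, SE 0.31, edgeR adjusted p 2.73e-11). prodh2, hydroxyproline dehydrogenase, had medians of 81.2 CPM in females and 8.27 CPM in males (3.18, SE 0.33), and gldc, which takes part in glycine breakdown, had 53.8 CPM in females and 17.8 CPM in males (1.63, SE 0.19). Among the genes higher in males, arg1, arginase, ran from 7.21 to 186 CPM in females (median 41.7) and from 95.2 to 462 CPM in males (median 253). Of the males 20 lay above every female (-2.20, SE 0.23, edgeR adjusted p 5.39e-13). uroc1 of histidine breakdown (-1.60, SE 0.18), hpdb of tyrosine breakdown (-1.47, SE 0.18) and gpt, alanine aminotransferase (-0.99, SE 0.14), were also higher in males.

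Fatty acid genes were divided. Of 44 genes of fatty acid and triglyceride synthesis, 11 were higher in females and 11 in males (25% each), and the list median of 0.08 turned to -0.44 with scaling by library totals, against -0.56 over all genes. scd, stearoyl-CoA desaturase, ran from 38.2 to 1608 CPM in females (median 228) and from 11.2 to 128 CPM in males (median 18.5), with 23 females above every male (3.54, SE 0.31, edgeR adjusted p 8.98e-16). fads2, an X gene needed for long-chain polyunsaturated fatty acids, had medians of 56.1 CPM in females and 0.884 CPM in males (5.15, SE 0.38, edgeR adjusted p 9.72e-19). fads6, named for the same desaturase family, was higher in males, with medians of 19.7 CPM in females and 90.3 CPM in males (-1.83, SE 0.23). dgat2, which makes triglyceride, was likewise higher in males, from 8.65 to 214 CPM in females (median 29.6) and from 13.1 to 1112 CPM in males (median 198), and 13 males lay above every female (-2.52, SE 0.31, edgeR adjusted p 2.68e-10). So did the elongase elovl1b (-2.54, SE 0.34) and plin2 (-1.93, SE 0.30), which coats lipid droplets. Fatty acid synthase, fasn, was not called, with a log2 fold change of -0.15.

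Fatty acid oxidation had 8 of 28 genes higher in females and 7 in males and a median of -0.08, and with scaling by library totals 4 and 17 genes and a median of -0.61. cpt1b, an X gene for a carnitine palmitoyltransferase, the enzyme type that admits fatty acids to mitochondria, ran from 0.198 to 643 CPM in females (median 105) and from 0 to 1.49 CPM in males (median 0.370). All females but one lay above every male (8.34, SE 0.53, edgeR adjusted p 6.95e-22). The ketone body enzyme bdh1 ran from 0.191 to 31.3 CPM in females (median 7.48) and from 2.16 to 329 CPM in males (median 84.0), and 25 of 30 males lay above every female (-3.42, SE 0.32, edgeR adjusted p 2.27e-14). pdk4, a kinase that holds back glucose oxidation, was higher in males, with medians of 27.9 CPM in females and 72.4 CPM in males (-1.33, SE 0.14).

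Of 18 lipoprotein genes, 5 were higher in females (27.8%) and 10 in males (55.6%), with a median of -0.96. apoa2, an apolipoprotein and one of the most abundant liver transcripts, ran from 4983 to 54000 CPM in females (median 22820) and from 14170 to 212900 CPM in males (median 69440). Of the males 22 lay above every female (-1.72, SE 0.20, edgeR adjusted p 7.55e-11). apobb.1, an apolipoprotein B gene, had medians of 510 CPM in females and 2289 CPM in males (-1.78, SE 0.20), and apoea, an apolipoprotein E gene, had 175 CPM in females and 1461 CPM in males (-2.46, SE 0.30). lpl, lipoprotein lipase, had medians of 214 CPM in females and 727 CPM in males (-1.41, SE 0.19). Members higher in females included fabp3, a fatty acid-binding protein, from 141 to 3294 CPM in females (median 1455) and from 28.0 to 558 CPM in males (median 84.6). For this gene 28 females lay above every male (3.60, SE 0.27, edgeR adjusted p 1.21e-18). mttp, which loads lipid onto apolipoprotein B, was higher in females as well (0.98, SE 0.17).

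Complement and coagulation genes were the functional list with the largest share of members higher in males: 3 of 42 were higher in females (7.14%) and 33 in males (78.6%), with a median of -0.83. cfi, a complement regulator, ran from 83.3 to 458 CPM in females (median 191) and from 236 to 1396 CPM in males (median 454), and 14 males lay above every female (-1.36, SE 0.15, edgeR adjusted p 4.14e-12). c8b, a component of the membrane attack complex, had medians of 162 CPM in females and 467 CPM in males (-1.43, SE 0.17). hpxb, a hemopexin gene for the heme-binding plasma protein, had medians of 290 CPM in females and 1845 CPM in males (-2.32, SE 0.31). The fibrinogen chains fga, fgb and fgg differed by -1.02, -1.22 and -0.99. The inter-alpha-trypsin inhibitor genes itih2 and itih5 stood the other way. itih2 had medians of 2674 CPM in females and 893 CPM in males, with 29 females above every male (1.34, SE 0.12, edgeR adjusted p 3.04e-16). The hepatocyte markers of the label check overlap with this list, since 5 of them are members of it.

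Genes that process foreign compounds and bile were mostly higher in males. Of 19 xenobiotic genes tested, 1 was higher in females (5.26%) and 12 in males (63.2%), with a median of -0.82. abcb4, a membrane transporter of the multidrug resistance family, ran from 1.07 to 167 CPM in females (median 36.0) and from 87.5 to 545 CPM in males (median 265). Of the males 23 lay above every female (-2.57, SE 0.25, edgeR adjusted p 9.01e-14). cyp2y3, a cytochrome P450, ran from 11.7 to 220 CPM in females and from 14.2 to 797 CPM in males (-2.06, SE 0.27), and sult1st6, a sulfotransferase, had 21.2 CPM in females and 56.1 CPM in males (-1.45, SE 0.19). Of 12 bile acid genes, 2 were higher in females and 7 in males, with a median of -0.63. Those higher in males included cyp7a1 (-1.26), the rate-limiting enzyme of bile acid synthesis, amacr (-1.35, SE 0.21) and fgf19 (-1.97, SE 0.31), known in mammals as a hormone that restrains that synthesis. slc10a1, which takes up bile acids from blood, was higher in females, with medians of 42.4 CPM in females and 13.4 CPM in males (1.49, SE 0.23). nr1h4, the bile acid receptor and an X gene, was higher in 33 of 33 females than in any male (2.07, SE 0.12, edgeR adjusted p 3.39e-25). Its interaction tests of liver against gills (0.29, edgeR adjusted p 0.694) and brain (-0.06, edgeR adjusted p 0.729) were not passed.

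Glucose genes followed the male side: 5 of 24 were higher in females (20.8%) and 11 in males (45.8%), with a median of -0.63. gapdh, a glycolytic enzyme often used as a reference gene, ran from 276 to 4325 CPM in females (median 1129) and from 423 to 9079 CPM in males (median 4277). Of the males 14 lay above every female (-1.62, SE 0.20, edgeR adjusted p 1.19e-10). slc2a2, the liver glucose transporter (-1.03, SE 0.18), and pck1, a key enzyme of glucose production (-1.33), were also higher in males. ldha, a lactate dehydrogenase subunit that is unmatched in the gene table, was higher in females, with medians of 10.3 CPM in females and 1.36 CPM in males, and 31 females lay above every male (3.23, SE 0.29, edgeR adjusted p 1.33e-15). It was also higher in female gills (2.69, SE 0.20) and female brain (2.68, SE 0.11), and the interaction tests of liver against these tissues were not passed (0.44 in both, edgeR adjusted p 0.220 and 0.206). pfkfb3, which makes an activator of glycolysis, had medians of 13.0 CPM in females and 2.81 CPM in males (2.04, SE 0.30).

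Among hormone pathway genes of growth, insulin and thyroid, 4 of 21 were higher in females (19%) and 8 in males (38.1%), with a median of -0.60. igf1, the growth factor that the liver releases under growth hormone, ran from 6.36 to 121 CPM in females (median 44.1) and from 0.695 to 53.6 CPM in males (median 19.5), and 11 females lay above every male (1.18, SE 0.23, edgeR adjusted p 1.48e-05). Its upstream receptor ghra was higher in males, with 18.2 to 143 CPM in females and 42.7 to 217 CPM in males (-1.09, SE 0.17), and so was igfbp5b, an IGF-binding protein, with 14.8 CPM in females and 55.9 CPM in males (-1.55, SE 0.21). dio1, which activates thyroid hormone, was higher in males (-1.83, SE 0.27). For iron, 2 of 14 genes were higher in females (14.3%) and 7 in males (50%). The transferrin receptor copies differed in sign, with tfr1a higher in males (-2.37, SE 0.32) and tfr1b higher in females (0.94, SE 0.16), and the iron exporter slc40a1 was higher in females (0.98, SE 0.17). hamp, hepcidin, which blocks that exporter, was not called, with medians of 243 CPM in females and 375 CPM in males (log2 fold change -0.40, SE 0.32, edgeR adjusted p 0.321). It passed the threshold with scaling by library totals, at -0.76.

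Nuclear genes of the respiratory chain were higher in females for 36 of 98 (36.7%) and in males for 10 (10.2%), with a median of 0.21. This direction turned with scaling by library totals, which gave 6 in females and 51 in males and a median of -0.34, against -0.56 over all genes. atp5fa1, the ATP synthase alpha subunit, was higher in females, with medians of 42.3 CPM in females and 17.5 CPM in males (1.36, SE 0.20). Of the genes higher in males, 3 encode alternative forms of cytochrome c oxidase subunits, which in mammals belong to lung, heart or muscle. cox4i2 ran from 0.686 to 45.9 CPM in females (median 3.10) and from 1.80 to 942 CPM in males (median 44.3), and 14 males lay above every female (-5.26, SE 0.59, edgeR adjusted p 1.82e-11). cox6a2 had medians of 119 CPM in females and 400 CPM in males (-1.76, SE 0.20), and cox7a1 had 30.5 CPM in females and 89.9 CPM in males (-1.40, SE 0.18). The striated muscle markers, also higher in males, had medians of 12.9 CPM in females and 14.4 CPM in males over the whole list. Of 6 tested among fish with tags under 100, 6 were higher in males, and of 6 among tags over 200, 0 were called. Their part in these differences was not tested. Counts from genes of the mitochondrial genome took 1.03% ± 0.411 of counts in females and 2.28% ± 0.671 in males. These are shares of library totals without TMM scaling, and a few transcripts fill much of a female total.

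The remaining lists showed smaller or divided differences. Of 38 chaperone genes, 7 were higher in females and 14 in males, with a median of -0.19: subunits of the CCT folding chamber such as cct4 were higher in females (0.66, SE 0.13), and hsp90ab1 was higher in males (-1.32, SE 0.18). Of 37 proteasome genes, 6 were higher in females and 0 in males with a median of 0.06, but library totals gave 2 and 24 with a median of -0.48. Innate immune signalling had 11 of 51 genes higher in females and 19 in males, with a median of -0.31, beside the leukocyte markers that were higher in males. Its male side held isg15, an interferon-induced modifier (-1.50, SE 0.23), and nfkb2 (-1.24, SE 0.18), and its female side ifih1, a sensor of viral RNA (1.13, SE 0.16). Clock genes numbered 4 in each direction among 16, but 2 higher in females and 12 in males with library totals, with per1b higher in males (-1.43, SE 0.28) and rorc higher in females (2.99, SE 0.36), and the call of nr1d4b in males was lost without its highest library (-0.56). Cell division genes were few and low, with 3 of 21 higher in females and 5 in males.

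The largest folds in the male direction belonged, beside the genes without a count in females, to genes at low levels in females. LOC120823430 ran from 0 to 0.513 CPM in females (median 0) and from 0.792 to 244 CPM in males (median 70.8). Every male lay above every female (log2 fold change -9.34, SE 0.51). As 3 counts are 0.384 CPM in a female library of median size, the female values lie near or below that level. The fold is therefore uncertain in size, and LOC120823430 is given as a description. Its log2 fold change in liver minus that in gills was -3.58 (SE 0.64), and minus that in brain -3.52 (SE 0.68). Both are smaller in size than -9.34, so its fitted levels in gills and brain were higher in males too. afp4, whose family name is that of an antifreeze protein, ran from 0 to 6.20 CPM in females (median 0.173) and from 0 to 645 CPM in males (median 4.50). The males spread over the whole of this range and 14 of 30 lay above every female (edgeR adjusted p 2.40e-10), a fitted level 64.1-fold higher in males (SE 0.73 on the log2 scale). Without its highest male the log2 fold change of afp4 was -5.04. The female median of afp4 also lay under 3 counts, so the size of its fold is uncertain too. LOC120835780 was called only through male replicate 21: its medians were 0.604 CPM in females and 0.649 CPM in males, that male had 13810 CPM, and the log2 fold change of -9.09 became -0.04 without it. Male replicate 21 was also the highest male for lect2.1, a gene named for a leukocyte chemotaxin secreted by liver, with 182800 CPM. lect2.1 had medians of 1728 CPM in females and 18290 CPM in males, and the sexes overlapped (-2.46, SE 0.36, edgeR adjusted p 4.97e-08). olfm2a, an olfactomedin gene, and ddc, the decarboxylase that makes dopamine and serotonin, were picked after their values were seen. olfm2a separated the sexes fully, at 0 to 4.66 CPM in females and 6.44 to 249 CPM in males (-4.64, SE 0.29, edgeR adjusted p 6.87e-23). It was also higher in male gills (-5.53, SE 0.27) and male brain (-1.475, SE 0.09). ddc overlapped, with medians of 11.1 CPM in females and 457 CPM in males (-4.02, SE 0.54, edgeR adjusted p 5.49e-09).

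How the libraries are scaled bears on the direction of weak differences, because a few transcripts fill much of a female library. TMM factors averaged 0.888 ± 0.292 over the females and 1.25 ± 0.308 over the males (± SD). Scaling by library totals gave a median log2 fold change of -0.56 over all genes, against -0.09 with TMM, and 1150 genes higher in females and 7448 higher in males. When the 10 genes of largest mean share in females were left out of the totals, an alternative added after the data were seen, the median was -0.03 and the split was 2971 genes higher in females and 2550 in males. The secretory, sterol and translation lists kept a positive median and the lipoprotein, complement, xenobiotic, bile acid, glucose and amino acid lists a negative median under each of the 4 scalings. The medians of the respiratory chain, proteasome, sex steroid and fatty acid synthesis lists changed sign with library totals. Counts moved towards males with library totals in other lists too: 10 amino acid genes were then higher in females and 37 in males, 2 and 17 of the glucose list, 2 and 16 of the hormone list, 2 and 11 of the iron list, 3 and 27 of the chaperone list, 5 and 31 of the immune list and 1 and 10 of the cell division list.

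**Figure D4:**
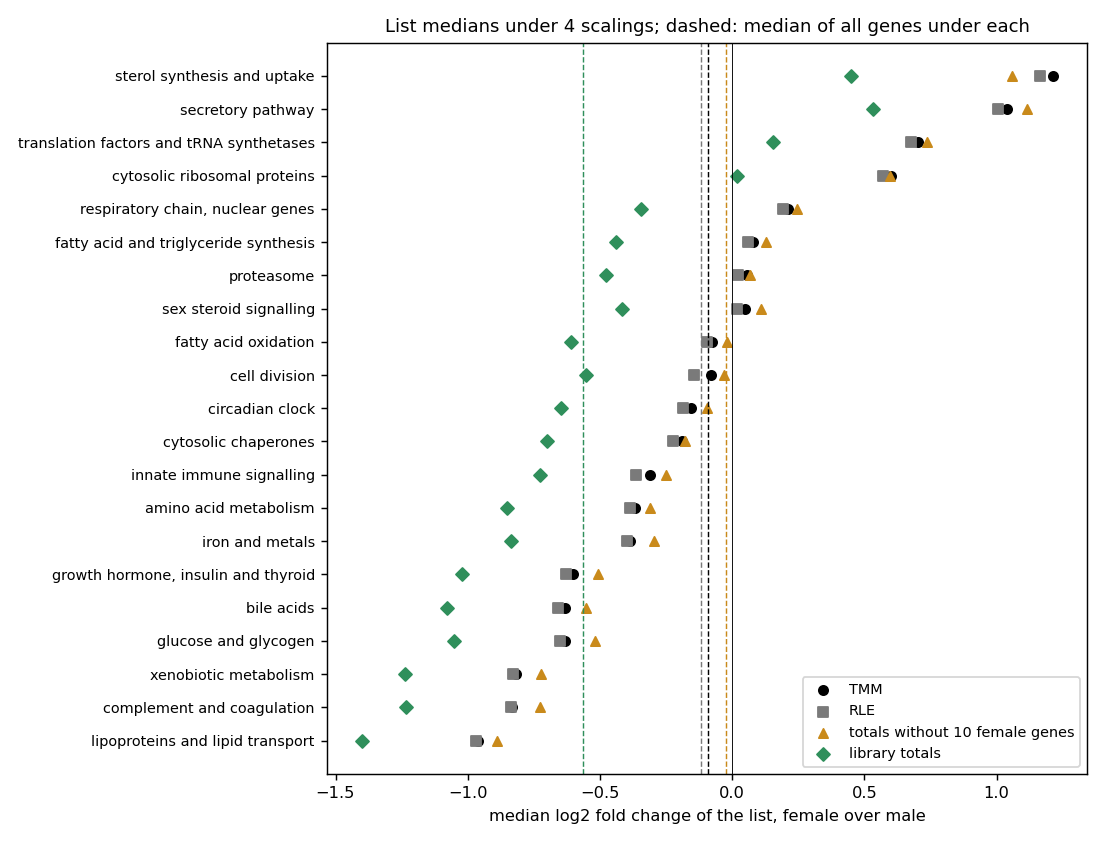
Median log2 fold change (female over male) of each gene list under 4 scalings: TMM, RLE, library totals without the 10 genes of largest female share, and library totals. Dashed lines mark the median of all genes under each scaling, and the diamonds of library totals lie to the left of the other symbols in every list, as does their dashed line at -0.56.

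The same fish gave brain and gill libraries, so each liver difference could be set against those tissues by a test of sex-by-tissue interaction. With the fish and depth rules applied to all tissues, 36 females and 37 males remained in brain and 34 females and 33 males in gills. The sex difference of the liver differed from that of the gills for 6923 of 20059 genes (34.5%) and from that of the brain for 6748 (33.6%), edgeR adjusted p under 0.05. Of the 2188 autosomal genes higher in female liver, 1342 (61.3%) had a larger difference in liver than in both other tissues. These genes were chosen by their liver call, and the interaction tests use the same liver libraries. That choice tends to raise such a share, here and in the male and X genes below. Of the same 2188, 92 were called higher in female gills and 79 in male gills, and 27 were called higher in female brain and 16 in male brain. Among the 2870 autosomal genes higher in male liver, 2279 (79.4%) differed more in liver, 54 were called higher in female gills and 177 in male gills, and 9 were called higher in female brain and 46 in male brain. Over all autosomal genes tested in those tissues, 2.53% were called higher in female gills and 5.87% in male gills, and 0.494% in female brain and 0.987% in male brain. Of the 353 X genes higher in female liver, 324 were also higher in female gills and 335 in female brain, where 86.6% and 92.6% of all X genes tested were, and 55 (15.6%) differed more in liver than in both. The log2 fold change of esr1 in liver exceeded that in gills by 6.29 (SE 0.31) and that in brain by 6.07 (SE 0.29). This too is given as a description, since esr1 followed vtg3 in the libraries set aside. scd exceeded gills by 3.20 (SE 0.25) and brain by 3.47 (SE 0.24), and bdh1 lay below gills by 3.42 on the log2 scale (SE 0.28) and below brain by 3.45 (SE 0.28). For igf1 the difference exceeded that of the brain by 1.19 (SE 0.26), but the test against gills was not passed (0.32, SE 0.27, edgeR adjusted p 0.386).

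**Figure D5:**
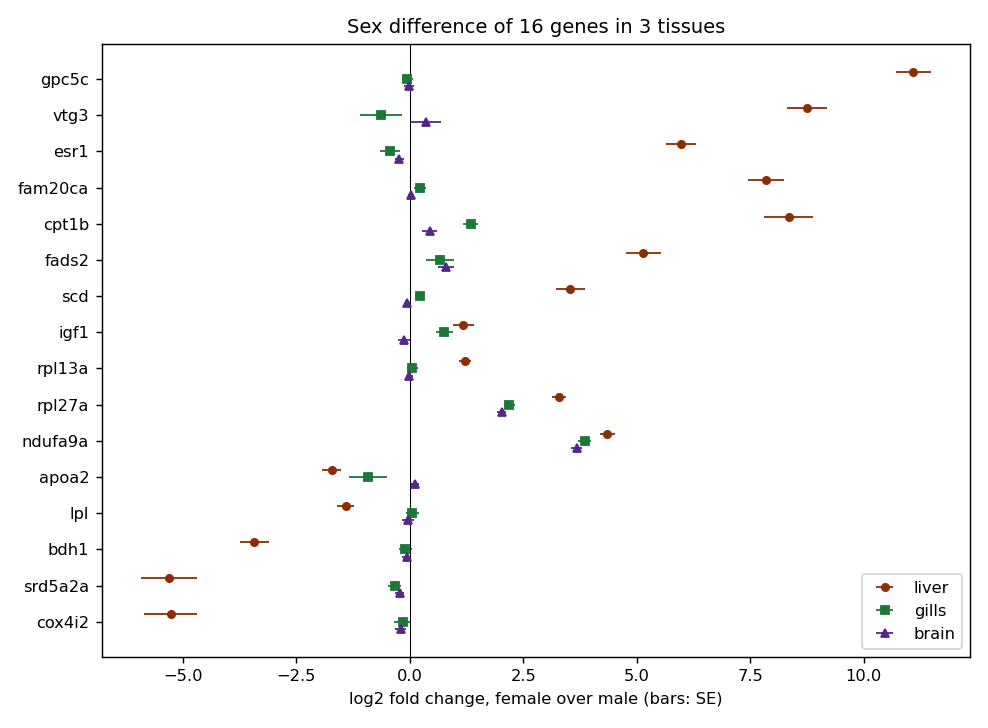
Log2 fold change (female over male) of 16 genes in liver, gills and brain, with bars of 1 SE. For gpc5c, vtg3 and esr1 the gill and brain points lie near 0 while the liver points lie between 5.97 and 11.09, and for the X genes rpl27a and ndufa9a all 3 tissues lie to the right of 0.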

How the data were processed

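Raw read counts per gene were deposited by the authors in 1 table for each tissue, neither normalised nor pooled, with 1 column for each library. Per the labels' protocols, RNA was extracted with a column kit and libraries were made with the QuantSeq 3′ FWD kit. Per the submitters' processing notes, fastp, STAR and HTSeq were used. Their versions and the build, annotation and strandedness used in counting are not given in the sources used here, so overlapping genes are uncertain. Reads in no gene (7.68% ± 1.48 of liver reads, SD, n = 77) and reads overlapping several genes (4.03% ± 0.667) entered neither library sizes nor tests.

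The tables list 25994 genes, of which 21014 were matched to a RefSeq gene table of the assembly fGasAcu3.hap1.1 for names and for the class autosome, X or Y (19267 by symbol, 1745 by gene number, 2 by synonym). As that assembly may differ from the one behind the counts, no position is given, and 4980 genes stayed unmatched.

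The members, gene lists and tests were chosen with earlier results of these data known. Females and males were compared with edgeR 4.0.16 in R 4.3.3: filterByExpr by sex, TMM scaling, trended dispersions, robust quasi-likelihood F test, sex as the only term, two-sided p-values adjusted by Benjamini and Hochberg over all genes tested, calls at an adjusted p-value under 0.05. Log2 fold changes are female over male, and SE was derived from the fold change and its F statistic. Levels are TMM-scaled CPM. Gene lists were made from symbols. Tissues were compared by interaction terms in 1 fit with a mean per tissue and sex, in which libraries of 1 fish count as independent. The test was also run on simulated counts in which a small set of genes changed, equally in both directions. In the data far more genes differed, so that run cannot judge the scaling. Alternatives were other scalings and filters, DESeq2 1.42.0, voom of limma 3.58.1, a test for a fold over 2, depth minimums, the return of libraries, the replicate block, and those added after seeing the data: leaving out female replicate 21, male replicate 21 or male replicate 28, the series of fish tag numbers, and totals without 10 genes.

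Genes were named by rule, in each direction: the 12 called genes of largest fold not on X or Y with at least 10 CPM in the higher sex, the 6 of largest CPM difference, up to 4 members per list of smallest adjusted p-value, and vtg genes, esr1, ar, igf1 and hepcidin. Other genes were named after their values were seen, among them sec61a1, pdia4, xbp1, hspa5, psat1, psph, fasn, cyp7a1 and pck1. Total counts per library set the depth, and counts carry no molecular identifiers.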

Additional observations from a re-analysis of the deposited data

Results flagged for a closer look

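The genes here were picked by hand from the named genes, not by the size of the interaction. Thus vtg3, at 9.24 against gills, was left out. A picked gene is given where the interaction test of liver against another tissue of the same fish was passed (edgeR, adjusted p under 0.05). Values are the log2 fold change (female over male) in liver minus that in the other tissue.

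Against gills, 6923 of 20059 genes differed (34.5%). The excess was 11.03 for gpc5c, 7.51 for fam20ca, 6.88 for cpt1b, 6.29 for esr1, 4.38 for fads2 and 1.52 for ciartb, a gene of the circadian family. Of these, cpt1b, fads2 and ciartb are X genes. In the male direction it was -5.13 for cox4i2, -4.96 for srd5a2a, -4.43 for afp4 and -3.42 for bdh1.

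Against brain, 6748 of 20059 genes differed (33.6%). The excess was 11.00 for gpc5c, 7.77 for cpt1b, 7.71 for fam20ca, 6.07 for esr1, 4.24 for fads2, 1.53 for ciartb and 1.19 for igf1. In the male direction it was -5.97 for afp4, -5.09 for cox4i2, -5.07 for srd5a2a, -3.45 for bdh1 and -1.92 for apoa2.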

How the results depend on the processing

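The count of 6172 genes that differed stayed within 1.5 times under most alternatives, from 4265 with all liver libraries to 8598 with library totals, but a test for a fold over 2 gave 1118 genes (595 higher in females and 523 in males). Library totals gave 1150 genes higher in females and 7448 in males, and 1171 and 7280 with the egg list left out of the total. That list had 1 tested gene, vtg3, at a mean of 0.932% of female counts, so leaving it out could change the totals little. The unnamed transcripts of larger share stayed in that total. All liver libraries gave 2294 and 1971. Fish tags under 100 alone gave 2301 and 2026, and tags over 200 alone gave 3449 genes, 1559 higher in females and 1890 in males, both with fewer fish and added after seeing the data. Leaving out female replicate 21, male replicate 21 or male replicate 28 gave 6093 to 6290 genes, 2694 to 2876 higher in females and 3328 to 3499 in males.

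Replicate numbers name different fish in the sexes. Deviations of the 25 pairs of one number correlated at a median of 0.076, against -0.003 over all female and male libraries. The pairs ran from -0.355 to 0.447, and 10 of them exceeded 0.1. Of the females, 0 correlated best with the male of their number. With the replicate block, 5203 genes differed, 2305 higher in females and 2898 in males, and the interaction counts were 6583 against gills and 6475 against brain.

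Of 175 named genes, calr alone turned in direction, at 0.46 with tags under 100 alone, and the cause was not tested. Among them 79 lost their call in the test for a fold over 2, 21 with tags over 200 alone and 11 with all liver libraries. Losses numbered 16 with library totals, and 16 also with the egg list left out of the total. They numbered 10 with tags under 100 alone, 10 with the replicate block, and at most 6 under each other alternative. These losses count only genes still tested. The stricter filter, which asks for at least 10 counts in libraries of both sexes, tested 150 of the 175. With X and Y genes left out, 163 were tested. hamp gained a call with library totals. Depth limits genes at a few counts: 3 counts are 0.384 CPM in a female library of median size.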
